A study of Mus musculus with 4 samples.

Results

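Glucocorticoids such as dexamethasone act through the glucocorticoid receptor (GR), a nuclear receptor that is held in the cytoplasm by HSP90 and its co-chaperones. Upon hormone binding GR moves to the nucleus, where it activates or represses genes. Dexamethasone is part of the hormone mixture that starts adipogenesis in culture, and it acts early in that process. The 8 genes described here are Nr3c1, which encodes GR, and 7 genes that glucocorticoids are known to induce. They are the GR co-chaperone gene Fkbp5, Tsc22d3 (also called GILZ, an anti-inflammatory leucine zipper protein), the kinase gene Sgk1, the metallothionein genes Mt1 and Mt2, the MAP kinase phosphatase gene Dusp1, and Hsd11b1, whose enzyme regenerates active glucocorticoid from its inactive 11-keto form. They were chosen by name, with earlier results of these data known, and all 8 had values among the 13085 genes measured. Hsd11b1 and the metallothionein genes are also regulated by other signals, so the group is not a readout of GR alone.

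RNA-seq was performed on 4 stable lines of 3T3-L1, a murine preadipocyte line that stores lipid after hormonal induction, with 1 sample per line. FLAG cells carry the empty FLAG vector, FLAG-CACUL1 cells overexpress CACUL1, a repressor of nuclear receptors that was studied here for its role in adipogenesis, sh-Luc cells express a hairpin against luciferase, and sh-CACUL1 cells express a hairpin against CACUL1. Every line received the same initiation medium with 1 µg/ml dexamethasone, 5 µg/ml insulin, 5 µM rosiglitazone and 0.5 mM IBMX, followed by medium whose only listed hormone was insulin, and RNA was extracted on day 8. The lines were raised from drug-resistant colonies, with G418 for the FLAG vectors and Hygromycin B for the hairpin vectors, and the number of colonies per line was not given in the sources used here. Since no sample without dexamethasone was among those analysed, the values are levels after the dexamethasone-containing medium had been replaced, and not a measurement of induction.

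Levels are given as FPKM (fragments divided by transcript length in kilobases and by the total of mapped fragments), a value per length that can be set side by side between genes. A change is the difference of log2(FPKM + 1) and was called at 2-fold or more. With 1 sample per condition no difference has a replicate check and no test was made. The sequencing depth was estimated at 14200000 to 24200000 fragments per sample, and intervals given below are exact 95% intervals of the FPKM ratio without the added 1, which cover counting error only. Cacul1 itself had 9.61 FPKM in FLAG against 11.8 in FLAG-CACUL1, and 10.2 in sh-Luc against 5.39 in sh-CACUL1. On the scale of FPKM + 1, Cacul1 was thus 1.21-fold above its control upon overexpression and 1.76-fold below its control upon depletion. Its log2 changes were 0.27 and -0.82, before the shift of all genes given below is taken off. Overexpression and depletion name the lines by their constructs. The study monitored the protein by western blot, and protein was not analysed here. The order of samples is a description, since the spread between cultures is unknown. The median of all genes shifted by 0.09 on the log2 scale in FLAG-CACUL1 against FLAG, by -0.30 in sh-CACUL1 against sh-Luc and by -0.18 in FLAG against sh-Luc, and changes relative to that shift are given where they matter.

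The 8 genes did not move as a block. In FLAG-CACUL1, Mt2, Hsd11b1, Mt1 and Dusp1 were at least 2-fold lower than in FLAG, and none of the 8 was at least 2-fold higher. In sh-CACUL1, Hsd11b1 was at least 2-fold higher and Mt2 at least 2-fold lower than in its sh-Luc control. Thus Hsd11b1 differed in opposite directions under overexpression and depletion, while Mt2 was lower in both. Fkbp5, Tsc22d3 and Sgk1 differed more between vectors than within them, with higher levels in both hairpin lines than in both FLAG lines. Over all genes, 7.22% were at least 2-fold lower and 7.51% at least 2-fold higher in FLAG-CACUL1 against FLAG, compared with 4 and 0 of the 8. In sh-CACUL1 against sh-Luc, 4.94% of genes were at least 2-fold higher and 16.4% at least 2-fold lower, compared with 1 and 1 of the 8. The median change of the 8 genes was -0.53 upon CACUL1 overexpression and -0.55 upon depletion, or -0.62 and -0.24 relative to all genes.

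**Figure D1:**
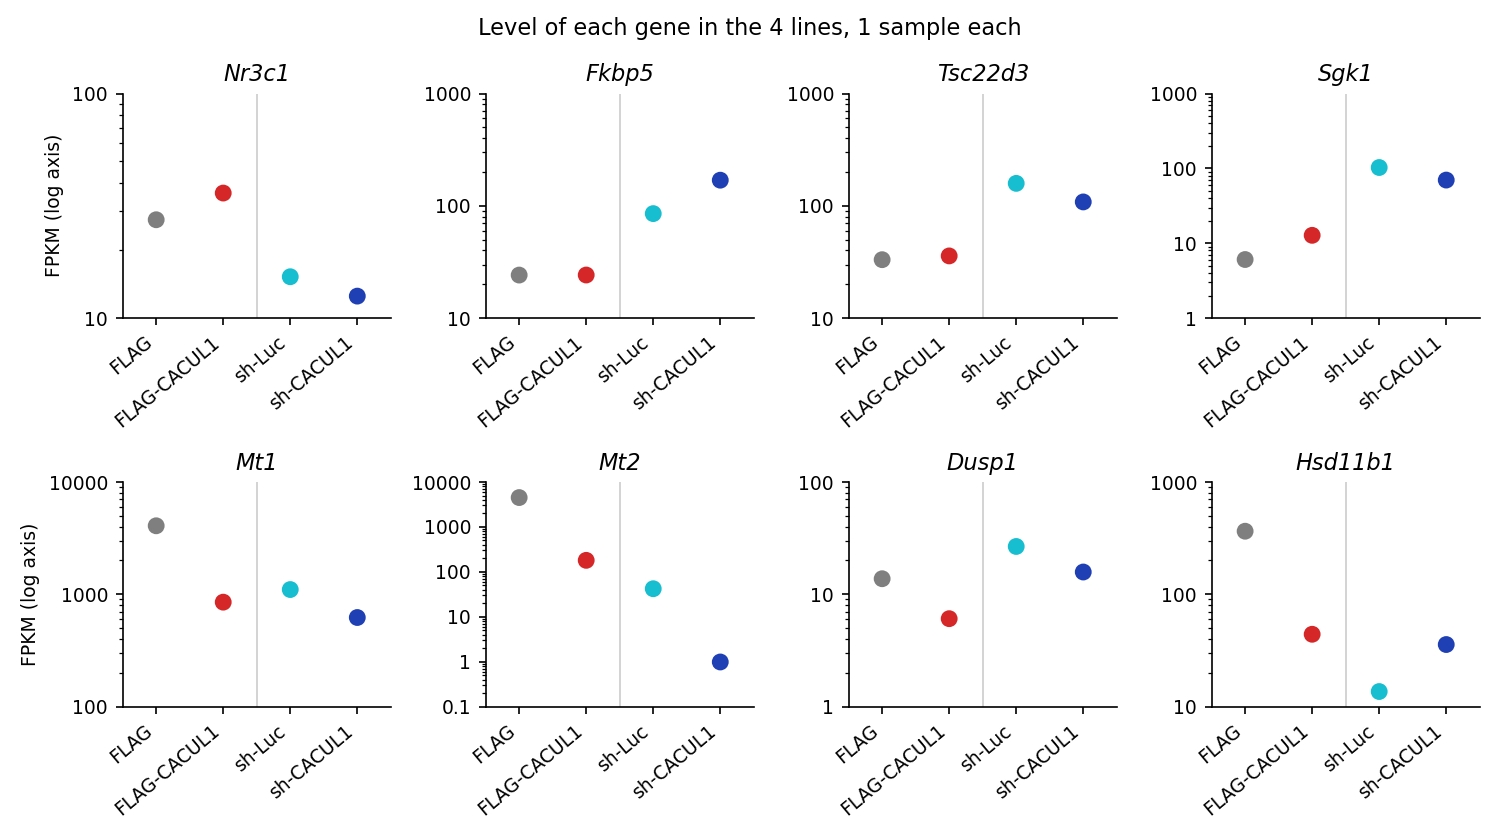
FPKM (log axis, scaled separately for each gene) of the 8 genes in the FLAG and hairpin lines, with 1 point per sample and a grey line between the FLAG and hairpin vectors. Fkbp5, Tsc22d3 and Sgk1 lie higher in both hairpin lines, and Mt2 spans 0.984 to 4503.1 FPKM.

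**Figure D2:**
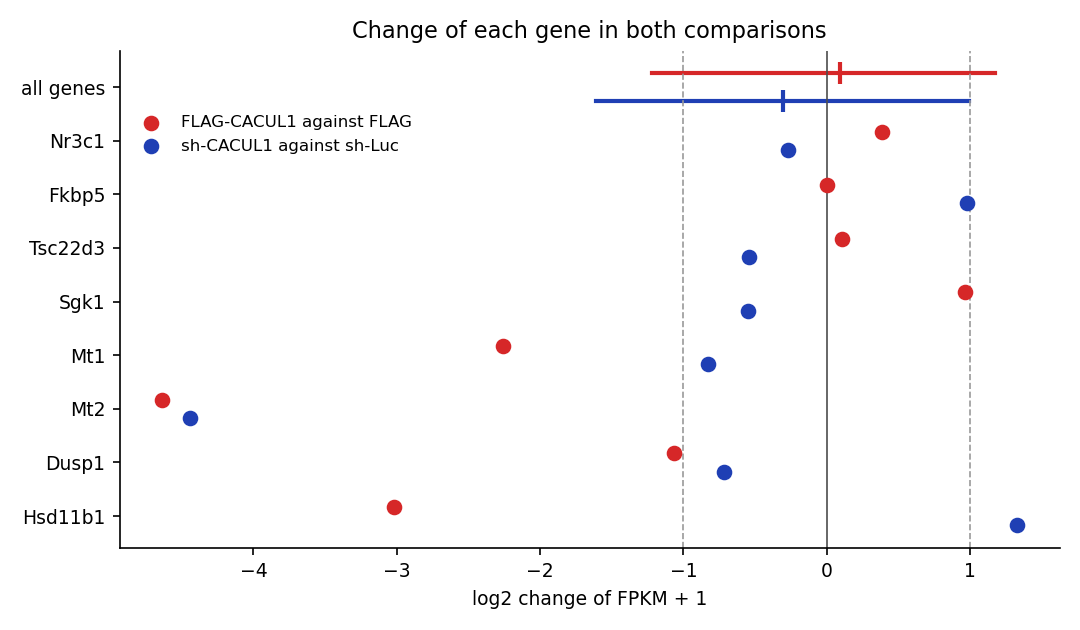
Log2 change of FPKM + 1 for each gene in FLAG-CACUL1 against FLAG (red) and sh-CACUL1 against sh-Luc (blue), with the median (tick) and the 5th to 95th percentiles (bar) of all genes on top and dashed lines at 2-fold. Mt2 lies beyond -4 in both comparisons, and Hsd11b1 lies at -3.02 and 1.33.

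Nr3c1 differed by less than 2-fold within each vector. The gene (NM_008173) is located on chromosome 18 (39410545 to 39519421, minus strand; coordinates are those of GRCm38). Its level was 27.4 FPKM with FLAG, 36.0 with FLAG-CACUL1, 15.3 with sh-Luc and 12.5 with sh-CACUL1. Both FLAG lines were therefore above both hairpin lines, and the highest level was 2.88 times the lowest. The change was 0.38 in FLAG-CACUL1 against FLAG, with an interval from 0.32 to 0.47. In sh-CACUL1 against sh-Luc it was -0.27, with an interval from -0.39 to -0.19, but 0.04 relative to the median of all genes, 0.19 after quantile normalization and 0.18 after median-of-ratios scaling, so that its direction depended on the scaling. The mineralocorticoid receptor gene Nr3c2, whose product also binds glucocorticoids, was far lower, at 0.83 FPKM in FLAG against 1.11 in FLAG-CACUL1, and 2.55 in sh-Luc against 0.76 in sh-CACUL1. The Nr3c1 level was 33.1 times that of Nr3c2 with FLAG, 32.5 times with FLAG-CACUL1, 5.99 times with sh-Luc and 16.4 times with sh-CACUL1.

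Chaperones fold GR and hold it ready for hormone. Of 12 genes of this list, 2 were at least 2-fold higher and 0 lower in FLAG-CACUL1, and 0 were higher and 1 lower in sh-CACUL1. Counts of this and the following lists stand beside 7.51% of all genes higher and 7.22% lower in FLAG-CACUL1, and 4.94% higher and 16.4% lower in sh-CACUL1. Their median change was 0.48 upon CACUL1 overexpression and -0.59 upon depletion, beside 0.09 and -0.30 over all genes. Ptges3, which encodes the HSP90 co-chaperone p23, had 43.1 FPKM in FLAG against 110 in FLAG-CACUL1, and 82.7 in sh-Luc against 35.5 in sh-CACUL1, a change of 1.33 and -1.20, respectively. Dnaja1, an HSP40 co-chaperone gene, changed by 1.28 upon CACUL1 overexpression and by -0.59 upon depletion. Hsp90aa1, which encodes an HSP90 isoform, changed by 0.17 and -0.97, and the phosphatase gene Ppp5c by 0.86 and -0.24.

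FKBP51, the product of Fkbp5, lowers the hormone affinity of GR, and Fkbp5 is itself a GR target. Fkbp5 (NM_010220; chromosome 17, 28399094 to 28517527, minus strand) had 24.2 FPKM with FLAG, 24.2 with FLAG-CACUL1, 85.2 with sh-Luc and 169.1 with sh-CACUL1. The FLAG lines differed by less than the counting error, with a log2 difference of 0.00 and an interval from -0.11 to 0.12. sh-CACUL1 was 1.97-fold above sh-Luc, a log2 change of 0.98 just short of 2-fold, with an interval from 0.94 to 1.03. Relative to the median of all genes that change was 1.28, and it was past 2-fold under both quantile normalization (1.17) and median-of-ratios scaling (1.45). Fkbp4, the gene of the related co-chaperone FKBP52 that favours GR transport to the nucleus, had 24.2 FPKM in FLAG against 31.3 in FLAG-CACUL1, and 75.1 in sh-Luc against 62.4 in sh-CACUL1. The ratio of Fkbp5 to Fkbp4 was thus 0.997 with FLAG, 0.774 with FLAG-CACUL1, 1.13 with sh-Luc and 2.71 with sh-CACUL1. Fkbp4 was also higher in the hairpin lines, so that the ratio of the controls was alike and that of sh-CACUL1 stood highest.

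Tsc22d3 and Sgk1 had the same order of samples, with sh-Luc highest, then sh-CACUL1, FLAG-CACUL1 and FLAG. Tsc22d3 (NR_122039 and 2 other identifiers in 1 row; chromosome X, 140539528 to 140600659, minus strand) had 33.1 FPKM in FLAG against 35.8 in FLAG-CACUL1, and 158.4 in sh-Luc against 108.2 in sh-CACUL1. It changed by 0.11 in FLAG-CACUL1 against FLAG, with an interval from -0.03 to 0.25 that includes no difference, and this value became -0.03 after median-of-ratios scaling. In sh-CACUL1 against sh-Luc it changed by -0.55, or by -0.24 relative to the median of all genes. Among the 4 measured relatives of Tsc22d3 and Sgk1, 0 were past 2-fold in FLAG-CACUL1 and 2 were at least 2-fold lower in sh-CACUL1, namely Tsc22d2 with a change of -1.29 and Tsc22d4 with -1.10. Tsc22d1 changed by 0.54 upon CACUL1 overexpression and 0.36 upon depletion, and Sgk3 by 0.56 and -0.78, with at most 2.36 FPKM in any sample. The median change of these relatives was 0.17 upon CACUL1 overexpression and -0.94 upon depletion, or 0.08 and -0.64 relative to all genes.

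Sgk1 encodes a serum- and glucocorticoid-induced kinase related to AKT. The gene lies on the plus strand of chromosome 10 from 21882184 to 21999903, and 1 row joins 6 RefSeq transcripts (NM_001161845 is the first), so its start sites were not separated. Sgk1 had 6.06 FPKM with FLAG, 12.8 with FLAG-CACUL1, 102.6 with sh-Luc and 69.8 with sh-CACUL1. The change in FLAG-CACUL1 was 0.96, just under 2-fold, and 1.07 without the added 1, with an interval from 0.85 to 1.31. In sh-CACUL1 the change was -0.55, or -0.25 relative to the median of all genes.

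The promoter windows of the genes (250 bases before to 50 after a transcript start, from RefSeq on GRCm38.p6) were searched for the palindromic glucocorticoid response element, that is TGTTCT and its reverse complement facing each other across 3 bases. Windows were matched for 7 of the 8 genes, 14 windows in all. The full palindrome was present in 1 of these windows, and in 3 of 32851 promoter windows overall (0.00913%). This window belongs to 1 of 6 start sites of Sgk1, at chr10:21993640-21993939 on the plus strand. It is shown because it is the only window of the group with the full element, which begins 189 bases before the start and is in capitals.
Sgk1 window: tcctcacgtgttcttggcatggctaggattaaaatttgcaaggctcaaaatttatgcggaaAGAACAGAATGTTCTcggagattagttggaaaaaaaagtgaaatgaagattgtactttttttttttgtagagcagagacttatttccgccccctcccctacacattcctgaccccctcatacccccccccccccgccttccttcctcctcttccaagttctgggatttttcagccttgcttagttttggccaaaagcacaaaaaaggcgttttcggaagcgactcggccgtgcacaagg
The single arm TGTTCT, searched on both strands and contained in each full element, was found in 4 of the 14 windows and in 19.0% of all windows. These 4 belong to 2 of the 7 genes, Sgk1 and Tsc22d3, and include the Sgk1 window shown above. Genes with several starts, such as Sgk1 with 6, add several windows, so the 14 are not independent. Less perfect elements and sites outside these windows were not searched, and the data hold no measurement of GR binding.

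Lines of different vectors differed more in Fkbp5, Tsc22d3 and Sgk1 than lines of the same vector did. Both hairpin lines were at least 2-fold above both FLAG lines for these 3 of the 8 genes. Among all genes, 0.382% (50 of 13085) met this description. The 8 genes were chosen with earlier results of these data known, so this share and those below are for scale and test nothing. All genes also include those with low FPKM, for which the constant added before the log2 makes 2-fold harder to reach. The gap between the lower hairpin line and the higher FLAG line was 3.42-fold for Fkbp5, 2.97-fold for Tsc22d3 and 5.15-fold for Sgk1. In the converse direction, both FLAG lines were at least 2-fold above both hairpin lines for Mt2, with a 4.21-fold gap, and for 1.85% of all genes. Without the 2-fold requirement, both hairpin lines were above both FLAG lines for 4 of the 8 genes and 18.8% of all genes, and below them for 3 of the 8 and 17.3%. Between the controls alone, 3 of the 8 genes were at least 2-fold higher in FLAG than in sh-Luc (Mt1 by 1.89, Mt2 by 6.71 and Hsd11b1 by 4.64 on the log2 scale), and 3 were at least 2-fold lower (Fkbp5 by -1.78, Tsc22d3 by -2.22 and Sgk1 by -3.88). Over all genes these shares were 8.58% and 12.4%. The vector, the selection drug and the colonies that founded each line differ together between FLAG and hairpin lines, so they cannot be told apart. The control comparison shares its samples with both comparisons of CACUL1.

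Of the other lists, only a few genes shared the vector gap of Fkbp5, Tsc22d3 and Sgk1. Among 18 measured further glucocorticoid-induced genes, 1 did, the EGFR inhibitor gene Errfi1, with 11.3 FPKM in FLAG against 8.61 in FLAG-CACUL1, and 54.3 in sh-Luc against 55.0 in sh-CACUL1. Among 9 immediate early genes, which respond to growth factors and serum within minutes, 1 did, Egr1, with 2.94, 5.19, 63.4 and 27.6 FPKM in the same order. Errfi1 is named for this pattern, which was seen in its values first. None of the 4 relatives of Tsc22d3 and Sgk1 did. In the opposite direction, 4 of 11 inflammatory genes (Cxcl1, Ptgs2, Mmp3 and Mmp13) were at least 2-fold higher in both FLAG lines than in both hairpin lines, as were 1 of 9 immediate early genes (Ier3) and 2 of 7 preadipocyte markers (Ly6a and Col1a1).

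Mt1 and Mt2 encode small cysteine-rich proteins that bind zinc and copper, and are induced by metals as well as by glucocorticoids. The genes are neighbours on the plus strand of chromosome 8, with 5513 bases between Mt2 (NM_008630; 94172664 to 94173568) and Mt1 (NM_013602; 94179082 to 94180327). Their coding sequences from GENCODE M21 are shown because near-identical neighbours could share reads. Capitals mark the bases that differ.
Mt1 coding sequence: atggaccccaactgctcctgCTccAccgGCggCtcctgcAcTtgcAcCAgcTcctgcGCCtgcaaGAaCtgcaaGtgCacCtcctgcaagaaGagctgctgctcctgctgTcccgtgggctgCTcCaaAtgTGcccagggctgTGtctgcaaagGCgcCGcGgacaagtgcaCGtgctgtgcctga
Mt2 coding sequence: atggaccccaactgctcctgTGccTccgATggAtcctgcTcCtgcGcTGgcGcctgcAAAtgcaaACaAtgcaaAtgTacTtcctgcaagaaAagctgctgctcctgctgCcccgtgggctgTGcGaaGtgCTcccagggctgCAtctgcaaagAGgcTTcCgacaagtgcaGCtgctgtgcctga
Both are 186 bases long and differ at 38 positions (79.6% identity). The longest identical run is 20 bases, and the transcripts share 0 stretches of 31 bases, so that an error-free read of that length or more matches only 1 of them.

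The levels of Mt1 and Mt2 were similar in FLAG and then parted. Mt2 had 4503.1 FPKM with FLAG, 180.3 with FLAG-CACUL1, 42.1 with sh-Luc and 0.984 with sh-CACUL1. It thus ranked 5 among all genes in FLAG and 10390 in sh-CACUL1, where it rests on an estimated 7.6 fragments. Mt1 had 4074.7 FPKM in FLAG against 851.1 in FLAG-CACUL1, and 1102.3 in sh-Luc against 621.1 in sh-CACUL1, and ranked between 6 and 105 in every sample. The highest level was 6.56 times the lowest for Mt1 and 4576 times for Mt2. The ratio of Mt2 to Mt1 was 1.11 with FLAG, 0.212 with FLAG-CACUL1, 0.0382 with sh-Luc and 0.00158 with sh-CACUL1, where Mt1 was 631 times as high as Mt2.

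**Figure D3:**
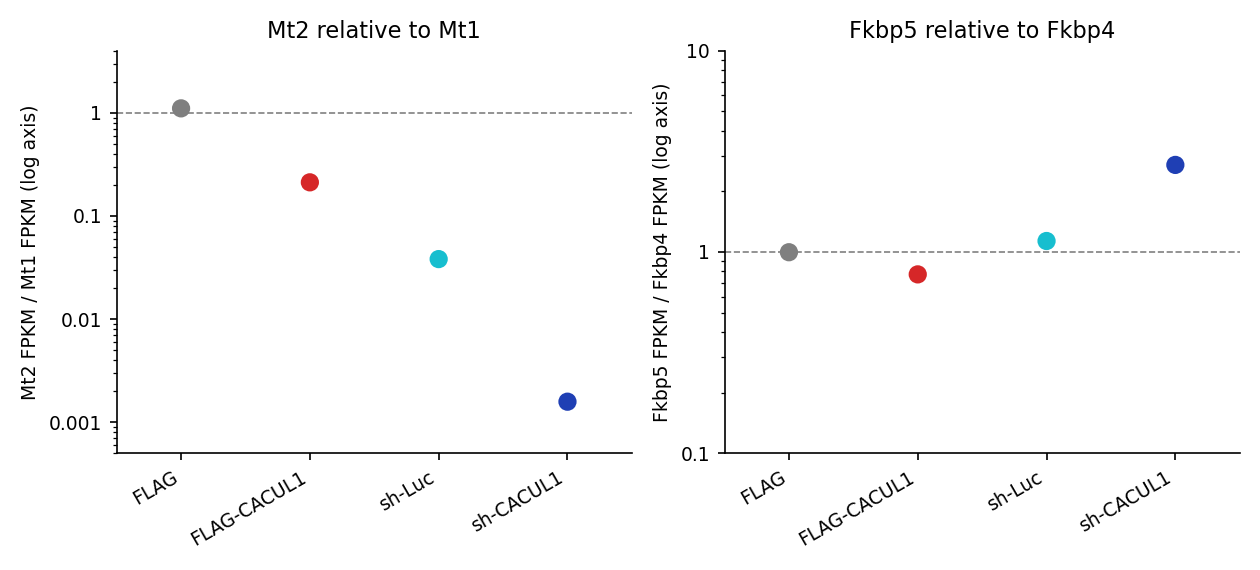
Ratio of FPKM of Mt2 to Mt1 (left) and of Fkbp5 to Fkbp4 (right) in each of the 4 samples, on log axes, with a dashed line at equal levels. Mt2 per Mt1 goes from 1.11 in FLAG down to 0.00158 in sh-CACUL1, and Fkbp5 per Fkbp4 is highest in sh-CACUL1 at 2.71.

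In FLAG-CACUL1 against FLAG, Mt2 changed by -4.63 (24.8-fold lower) with an interval from -4.72 to -4.56, and Mt1 by -2.26 (4.78-fold lower) with an interval from -2.30 to -2.22. In sh-CACUL1 against sh-Luc, Mt2 changed by -4.44 and Mt1 by -0.83, or by -0.52 for Mt1 relative to the median of all genes. The value of Mt2 depends on the added 1 because of its low level in sh-CACUL1. Without it the log2 ratio was -5.42, with an interval from -6.56 to -4.36. FPKM of transcripts this short (511 and 549 bases) also depends on how the program corrects length for fragment size, which is not given in the sources used here.

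Zinc enters and leaves cells through the Slc39 and Slc30 transporters, and the exporter gene Slc30a1 is, like the metallothionein genes, a target of the metal-responsive factor MTF1. Of 6 measured genes that handle zinc, 1 was at least 2-fold higher in FLAG-CACUL1, the importer gene Slc39a6 with a change of 2.04, and the same gene was lower in sh-CACUL1, with -1.14. Slc30a1 had 3.82 FPKM in FLAG against 2.55 in FLAG-CACUL1, and 2.35 in sh-Luc against 1.65 in sh-CACUL1, in the same order of samples as Mt2 but over a far narrower range. That order was not particular to Slc30a1, since other genes of this list and of the inflammatory and immediate early lists had it too. FLAG-CACUL1 and sh-Luc were also close, with a log2 difference of 0.08. Slc39a14, an importer gene, changed by -0.67 and 0.10, and Slc39a10 by -0.43 and -0.93, in FLAG-CACUL1 and sh-CACUL1, respectively. The median change of the list was -0.36 upon CACUL1 overexpression, or -0.46 relative to all genes. Upon depletion it was -0.33, or -0.02 relative to all genes.

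The promoter windows of Mt1 and Mt2 are shown because the genes are the textbook case of metal response elements, whose core TGCACNC or TGCGCNC was searched on both strands. Both windows are on the plus strand of GRCm38.p6, at chr8:94178839-94179138 for Mt1 and chr8:94172368-94172667 for Mt2. Capitals mark the cores on either strand.
Mt1 window: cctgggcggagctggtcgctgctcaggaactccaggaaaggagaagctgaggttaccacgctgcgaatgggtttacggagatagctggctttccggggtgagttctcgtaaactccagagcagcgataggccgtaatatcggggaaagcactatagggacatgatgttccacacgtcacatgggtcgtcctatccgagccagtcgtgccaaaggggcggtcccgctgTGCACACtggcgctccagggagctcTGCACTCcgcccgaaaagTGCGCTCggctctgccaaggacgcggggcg
Mt2 window: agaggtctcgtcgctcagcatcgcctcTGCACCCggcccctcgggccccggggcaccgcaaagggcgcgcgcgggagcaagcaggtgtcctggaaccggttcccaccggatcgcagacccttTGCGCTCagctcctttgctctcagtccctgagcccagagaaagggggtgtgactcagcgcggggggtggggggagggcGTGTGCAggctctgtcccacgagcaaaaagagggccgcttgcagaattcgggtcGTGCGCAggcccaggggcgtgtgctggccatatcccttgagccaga
The Mt1 window holds 3 cores and the Mt2 window holds 4. At least 1 core was found in 25.7% of all promoter windows, at least 3 in 1.97% and at least 4 in 0.517%. Neither window holds the full glucocorticoid element described above.

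Dusp1 encodes a phosphatase that inactivates the MAP kinases JNK and p38, and contributes to the anti-inflammatory action of glucocorticoids. Dusp1 (NM_013642; chromosome 17, 26505590 to 26562128 in the gene model, minus strand) had 13.8 FPKM with FLAG, 6.07 with FLAG-CACUL1, 26.7 with sh-Luc and 15.8 with sh-CACUL1. The hairpin lines were above the FLAG lines, but sh-CACUL1 and FLAG were only 1.14-fold apart. The change in FLAG-CACUL1 was -1.06, just past 2-fold, with an interval from -1.45 to -0.92 that includes 2-fold. In sh-CACUL1 it was -0.72, or -0.42 relative to the median of all genes.

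Other MAP kinase phosphatase genes did not move together. Of 6 measured, 1 was at least 2-fold higher and 3 lower in FLAG-CACUL1, and 0 were higher and 2 lower in sh-CACUL1. Dusp5, which encodes a nuclear ERK phosphatase, had 8.90 FPKM in FLAG against 0.62 in FLAG-CACUL1, and 2.10 in sh-Luc against 0.84 in sh-CACUL1. Dusp10, whose product acts on JNK and p38 like that of Dusp1, changed by -2.19 upon CACUL1 overexpression and 0.45 upon depletion. The ERK phosphatase genes Dusp6 and Dusp7 were higher in FLAG-CACUL1, by 0.88 and 1.43, and lower in sh-CACUL1, by -2.13 and -1.35. Dusp1 is also an immediate early gene, and of 9 other such genes 0 were at least 2-fold higher in either comparison, 4 were lower in FLAG-CACUL1 and 5 were lower in sh-CACUL1. Atf3, a stress-induced transcription factor gene, changed by -2.35 and -1.03, Ier3 by -2.25 and -1.54, Jun by -1.21 and -1.98, and Junb by -0.73 and -1.95. The median change of the 9 was -0.73 upon CACUL1 overexpression and -1.03 upon depletion, or -0.82 and -0.73 relative to all genes.

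Hsd11b1 had 364.5 FPKM with FLAG, 44.1 with FLAG-CACUL1, 13.6 with sh-Luc and 35.7 with sh-CACUL1. The gene (NM_008288 and 1 other identifier in 1 row) is on the minus strand of chromosome 1, from 193221634 to 193264075. FLAG stood apart from the other samples, which lay within 13.6 and 44.1 FPKM. FLAG-CACUL1 was 8.11-fold below FLAG (log2 change of -3.02, interval from -3.15 to -2.95), and sh-CACUL1 was 2.51-fold above sh-Luc (1.33, interval from 1.23 to 1.55). The latter was 1.63 relative to the median of all genes. Hsd11b1 is known to increase as preadipocytes mature into adipocytes. Within each vector, that is in both comparisons of CACUL1, markers of maturation moved in the same direction as this gene. All 8 adipocyte markers were lower by 2-fold or more in FLAG-CACUL1, and all 8 were higher by 2-fold or more in sh-CACUL1, with medians of -4.06 and 2.52. The summed level of these markers was 8401 FPKM in FLAG against 882 in FLAG-CACUL1, and 1688 in sh-Luc against 17517 in sh-CACUL1. Fabp4 made up 12543 FPKM of the sum in sh-CACUL1. Between vectors the levels did not run in parallel, since sh-CACUL1 had the highest summed markers but less Hsd11b1 than FLAG-CACUL1. Of the 8 markers, 4 (Pparg, Cebpa, Plin1 and Lpl) were highest in FLAG, as Hsd11b1 was, and the other 4 were highest in sh-CACUL1. The likeness is in the top sample only. FLAG against sh-CACUL1 was 70.1 against 61.8 FPKM for Pparg, 9.16 against 2.97 for Cebpa, 158 against 113 for Plin1 and 1143 against 1060 for Lpl. For Hsd11b1 it was 364.5 against 35.7. The part of cell maturation in the Hsd11b1 result was not tested, and in bulk RNA fewer cells of a type and less RNA per cell cannot be told apart.

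Among the markers, Cfd, which encodes adipsin, had 1070 FPKM with FLAG, 3.78 with FLAG-CACUL1, 18.5 with sh-Luc and 1159 with sh-CACUL1. Cidec, a lipid droplet protein gene, changed by -5.72 and 4.01, the adiponectin gene Adipoq by -5.13 and 2.86, and the perilipin gene Plin1 by -4.16 and 2.18. Of 7 preadipocyte markers measured, 4 were at least 2-fold higher and 1 lower in FLAG-CACUL1, and 2 were higher and 4 lower in sh-CACUL1. The collagen genes Col1a1 and Col3a1 changed by 0.01 and 0.85 in FLAG-CACUL1 and by -2.80 and -2.36 in sh-CACUL1. Thy1 and Dlk1, in contrast, exceeded their sh-Luc levels in sh-CACUL1 by 4.41 and 4.19, sh-Luc having only 0.66 and 0.22 FPKM. Of 6 macrophage and endothelial markers, 3 were measured (Cd68, Csf1r and Pecam1), Ptprc, Adgre1 and Cdh5 were not analysed here, and the summed level of those measured was 17.1 FPKM in FLAG and between 1.15 and 1.86 FPKM in the other samples. Cd68, which is also expressed outside macrophages, made up 16.2 FPKM of the former, and its part in the differences from FLAG was not tested.

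The enzyme of Hsd11b1 takes its reducing power from hexose-6-phosphate dehydrogenase, encoded by H6pd. H6pd had 38.8 FPKM in FLAG against 17.4 in FLAG-CACUL1, and 22.6 in sh-Luc against 24.4 in sh-CACUL1, a change of -1.11 and 0.11. The ratio of Hsd11b1 to H6pd was 9.39 with FLAG, 2.53 with FLAG-CACUL1, 0.602 with sh-Luc and 1.46 with sh-CACUL1, so Hsd11b1 varied more than its partner. Of 6 measured genes of steroid binding and handling, 1 was at least 2-fold higher and 2 lower in FLAG-CACUL1, and 0 were higher and 2 lower in sh-CACUL1, with medians of -0.25 and -0.07. Relative to all genes these medians were -0.35 and 0.23, so that the direction upon depletion depended on the shift of all genes. The P450 reductase gene Por had 191 FPKM in FLAG against 43.1 in FLAG-CACUL1, and 41.7 in sh-Luc against 61.7 in sh-CACUL1. The drug transporter gene Abcb1b, whose product exports dexamethasone, changed by 1.07 upon CACUL1 overexpression and -1.53 upon depletion, with no more than 3.53 FPKM in any sample.

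Beyond the 8 genes, 18 further glucocorticoid-induced genes were measured. In FLAG-CACUL1 2 of them were at least 2-fold higher and 8 lower than in FLAG, with a median change of -0.84. In sh-CACUL1 5 were at least 2-fold higher and 2 lower, with a median change of 0.03, or 0.33 above that of all genes. Lpin1, which encodes the phosphatidate phosphatase of triglyceride synthesis, had 30.1 FPKM with FLAG, 3.40 with FLAG-CACUL1, 5.72 with sh-Luc and 33.1 with sh-CACUL1. Angptl4, an inhibitor of lipoprotein lipase and target of PPARs as well as GR, had 379 FPKM in FLAG against 53.5 in FLAG-CACUL1, and 96.0 in sh-Luc against 318 in sh-CACUL1. Both genes were thus high in FLAG and sh-CACUL1 and low in FLAG-CACUL1 and sh-Luc, as was the summed level of the adipocyte markers. The transcription factor gene Klf15 changed by -2.46 and 1.84, with no more than 5.56 FPKM in any sample. Pdk4, whose kinase inhibits pyruvate dehydrogenase, changed by -0.75 upon CACUL1 overexpression and by -2.53 upon depletion.

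Most inflammatory genes that glucocorticoids repress were higher in FLAG-CACUL1 and lower in sh-CACUL1. Of 11 such genes, 7 were at least 2-fold higher and 2 lower in FLAG-CACUL1, with a median change of 1.41, and 0 were higher and 7 lower in sh-CACUL1, with a median of -2.31. Ccl2, which encodes a monocyte chemoattractant, had 87.3 FPKM with FLAG, 451 with FLAG-CACUL1, 51.1 with sh-Luc and 2.00 with sh-CACUL1. The chemokine genes Cxcl5 and Ccl7 changed by 4.50 and 1.69 in FLAG-CACUL1 and by -3.06 and -3.37 in sh-CACUL1. Cxcl5 had only 0.30 FPKM in sh-CACUL1, and without the added 1 its log2 ratio there was -5.04, with an interval from -6.39 to -4.01, beside -3.60 for Ccl7 and -4.68 for Ccl2. The collagenase gene Mmp13 changed by 3.79 in FLAG-CACUL1 but by -0.18 in sh-CACUL1, where both hairpin lines had at most 1.40 FPKM. Whether GR has a part in these changes was not tested. The 8 adipocyte markers described above moved in the opposite direction to most of these genes in both comparisons. The preadipocyte markers were split, with 4 of 7 at least 2-fold higher and 1 lower in FLAG-CACUL1. In sh-CACUL1, 2 of them were higher and 4 lower.

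**Figure D4:**
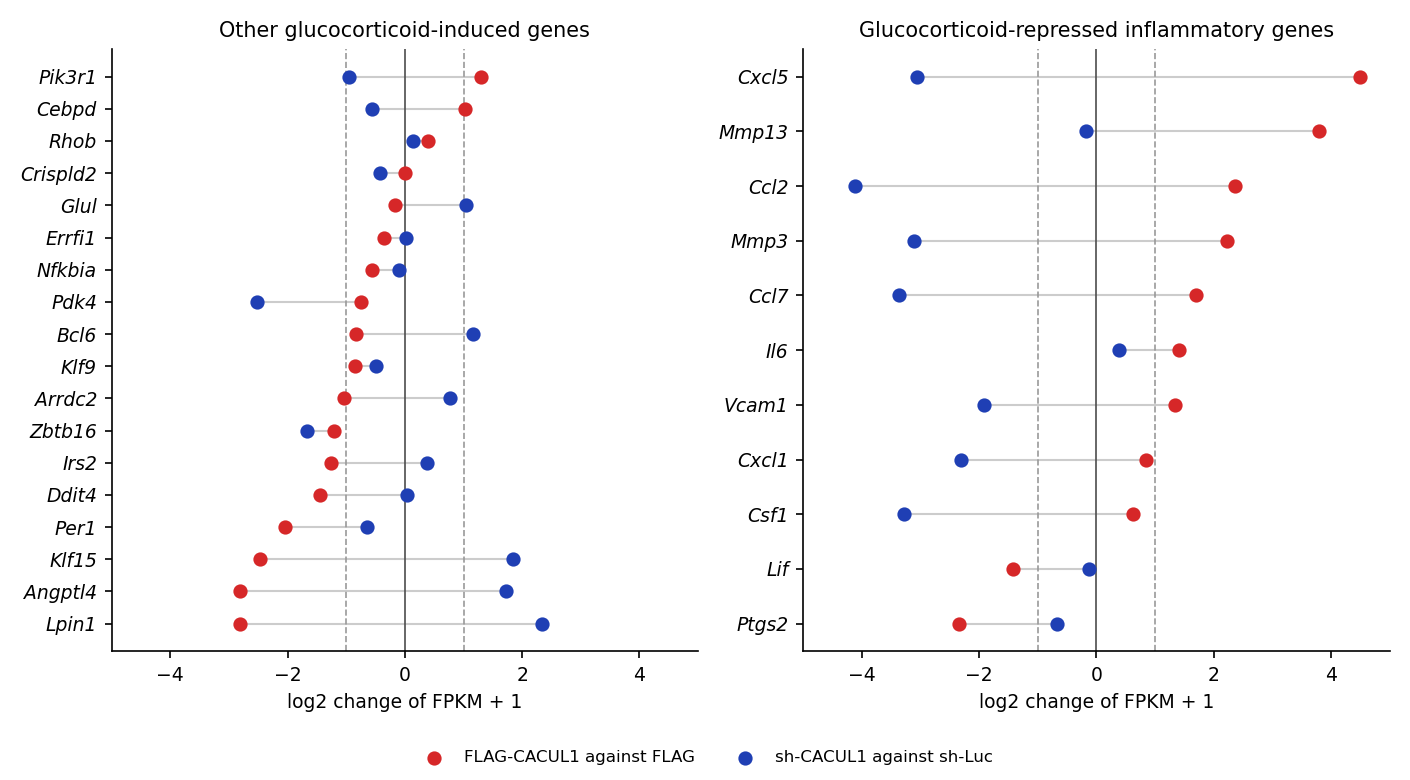
Log2 change of FPKM + 1 in FLAG-CACUL1 against FLAG (red) and sh-CACUL1 against sh-Luc (blue) for 18 further glucocorticoid-induced genes (left) and 11 glucocorticoid-repressed inflammatory genes (right), with dashed lines at 2-fold. Medians are -0.84 and 0.03 on the left, and 1.41 and -2.31 on the right.

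The genes with the most similar profiles were sought among 9563 genes that reached 1 FPKM or more in every sample, by the Euclidean distance between log2(FPKM + 1) values centred on their mean over the 4 samples. Each profile has only 4 points, so the distances are a description. Cd81 (0.13) and Lrfn3 (0.13) were among the genes closest to Nr3c1. Fkbp5 was closest to Gm10012 (0.41), Slc35e3 (0.53) and Wdr6 (0.59), Tsc22d3 to Adamts12 (0.27), Scara3 (0.33) and Lpar4 (0.35), and Sgk1 to Egr1 (0.49), Spry1 (0.70) and Gstt1 (0.74). Mt1 was closest to Phactr4 (0.07), Snrk (0.18) and Prkab2 (0.32), Dusp1 to Net1 (0.30), Igfbp6 (0.32) and Mcm7 (0.38), and Hsd11b1 to Trarg1 (0.46), Phospho1 (0.75) and Bnip3 (0.89). No neighbours are given for Mt2, which had under 1 FPKM in sh-CACUL1 and so fell outside the genes compared.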

How the data were processed

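The data are RNA-seq of 4 stable lines of 3T3-L1 after 8 days of differentiation. The authors deposited FPKM values per RefSeq row, computed by their sequencing company on mm10 per the labels, while the aligner, FPKM program and scaling between samples are not given in the sources used here. The 13110 rows were joined to symbols through GENCODE M21 on GRCm38 (191 without a symbol, 8 with more than 1) and summed to 13085 genes. No row was at 0. Each of the 8 genes had 1 row. Changes are differences of log2(FPKM + 1), called at 2-fold. Depth was estimated from the spacing of low FPKM multiplied by length in rows of at least 3000 bases, and it gave Clopper-Pearson intervals from estimated fragments. The 2-fold calls and the depth estimate were tested on simulated data, and the other steps were not.

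The 8 genes and all gene lists were chosen with earlier results of these data known. From each list up to 4 genes with the largest absolute change in either comparison of CACUL1, among those with at least 1 FPKM in a sample of it, are named, with up to 3 similar profiles per gene, some of which are not reported here. Fkbp4, Errfi1, Egr1 and the other genes with a vector gap were added after their values were seen. Other settings were 9 in number, with 1 more added after seeing the data. Python 3.11.15, numpy 2.4.6, scipy 1.17.1, pandas 2.3.3 and matplotlib 3.10.9 were used.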

Additional observations from a re-analysis of the deposited data

How the results depend on the processing

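The 12 calls of the 8 genes over 3 comparisons all remained past 2-fold in the same direction under quantile normalization and median-of-ratios scaling. They also did so relative to the median of all genes. With 0.1 FPKM or nothing added, or with the highest row per symbol, no call could be lost. A smaller added constant can only enlarge a log2 change, and each of the 8 genes had 1 row. When 1 FPKM or more was required in every sample, 1 of the 8 was past 2-fold in sh-CACUL1 against sh-Luc instead of 2, because Mt2 was filtered out. With that filter, 4.57% of the 9563 genes left were at least 2-fold higher and 18.48% lower. Without the filter, the number at a cut-off of 1.5-fold was 5, with 2 higher and 3 lower. Over all genes 10.1% were higher and 34.29% lower at that cut-off. At 3-fold the number was 1, a lower gene, beside 1.93% of all genes higher and 5.23% lower. Scaling mattered most for sh-CACUL1, where the shares of all genes at least 2-fold higher and lower went from 4.94% and 16.4% to 9.0% and 8.28% after quantile normalization, 9.41% and 7.45% after median-of-ratios scaling, and 8.27% and 8.80% relative to the median of all genes, the alternative chosen after seeing the data. Fkbp5 passed 2-fold under these 3. The Sgk1 change in FLAG-CACUL1 was 1.06 with 0.1 FPKM added. Nr3c1 in FLAG against sh-Luc was 1.08 after median-of-ratios scaling. Against the control of the other vector, 7 of the 8 were past 2-fold in each comparison of CACUL1 (instead of 4 and 2), 3 higher and 4 lower. Over all genes, 5.04% were at least 2-fold higher and 4.87% lower in FLAG-CACUL1 against sh-Luc. In sh-CACUL1 against FLAG these shares were 7.45% and 15.41%. The sign changed for 9 of 16 changes. FLAG-CACUL1 against sh-Luc gave 2.07 for Mt2 and 1.62 for Hsd11b1, and sh-CACUL1 against FLAG gave -3.32 for Hsd11b1, all calls opposite in direction to those with the matched control. Changes under 2-fold also turned, among them Sgk1 (-2.91 in FLAG-CACUL1 and 3.33 in sh-CACUL1), Tsc22d3 (-2.12 and 1.68), Fkbp5 in FLAG-CACUL1 (-1.77) and Dusp1 in sh-CACUL1 (0.19). No paired analysis was possible because each condition has 1 sample. Without replicates the spread between cultures or colonies is unknown, and the depth limits Mt2 in sh-CACUL1 in particular.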
